A study of Homo sapiens with 5 samples.

Results

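Prostate luminal lineage transcription factors are DNA-binding proteins that give the secretory cells of the gland their identity. The group described here holds 6 of them (HOXB13, FOXA1, GATA2, GATA3, SPDEF and SOX9), listed by name with earlier results of these data known, among 19775 genes. All 17 probe sets that the platform's gene table assigns to these genes alone were taken, and all 6 genes had at least 2. RNA came from C4-2B cells, a line derived from LNCaP prostate cancer cells that had grown in bone, kept in RPMI with fetal bovine serum. There were 4 treated groups, given 25 µM BR-DIM (B-DIM in the labels, a formulated 3,3′-diindolylmethane) for 6 h or 48 h, or 25 µM isoflavone (the soy mixture G2535, dosed by its genistein) for 6 h or 72 h. The control received 0.1% DMSO, and no source used here gives its time in culture or says whether the 5 RNAs came from one culture. Treatment and any difference between cultures therefore cannot be told apart. Each condition had 1 Affymetrix array, so no difference below has a replicate check, no p-value is given, and every ratio describes these arrays.

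FOXA1 is a forkhead factor that opens compacted chromatin so that other factors can bind, HOXB13 is a homeobox factor of the prostate, and GATA2 is a zinc finger factor that acts at enhancers of luminal genes. GATA3 is a related zinc finger factor of luminal epithelia, SPDEF is an ETS factor of secretory epithelia, and SOX9 is an HMG box factor of prostate buds that in the adult gland is better known from basal and progenitor cells. In cells of the LNCaP lineage FOXA1, HOXB13 and GATA2 bind at many of the same enhancers, and the best known luminal product of these cells comes from KLK3, the gene of prostate-specific antigen. Bulk arrays cannot tell fewer cells of a type apart from less RNA per cell.

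The sequences before the start sites of FOXA1 and SPDEF are shown because these genes gave 2 of the lower signals described below, and that of GATA3 because GATA3 did not. RefSeq's promoter table (GRCh38.p14) held 4 of the 6 genes with 10 start sites, and HOXB13 and SOX9 were not matched. Capitals mark a forkhead-type motif, TGTTTGC or its reverse complement GCAAACA, and each run is the 250 bases before the start, 5′ to 3′ on the gene's strand. FOXA1 lies at chr14:37595250-37595499 (minus strand), SPDEF at chr6:34556330-34556579 (minus strand), and the most upstream of 6 GATA3 starts at chr10:8045083-8045332 (plus strand).
FOXA1: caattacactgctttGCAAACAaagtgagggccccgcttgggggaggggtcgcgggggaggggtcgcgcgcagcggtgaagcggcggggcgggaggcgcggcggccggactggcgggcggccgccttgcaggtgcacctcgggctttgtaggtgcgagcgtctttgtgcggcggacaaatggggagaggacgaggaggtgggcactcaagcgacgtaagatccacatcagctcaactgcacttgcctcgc
SPDEF: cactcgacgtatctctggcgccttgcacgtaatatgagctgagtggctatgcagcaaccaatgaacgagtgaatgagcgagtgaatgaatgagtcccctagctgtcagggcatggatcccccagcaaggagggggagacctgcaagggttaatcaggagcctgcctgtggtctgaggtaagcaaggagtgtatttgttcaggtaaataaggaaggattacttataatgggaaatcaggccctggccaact
GATA3: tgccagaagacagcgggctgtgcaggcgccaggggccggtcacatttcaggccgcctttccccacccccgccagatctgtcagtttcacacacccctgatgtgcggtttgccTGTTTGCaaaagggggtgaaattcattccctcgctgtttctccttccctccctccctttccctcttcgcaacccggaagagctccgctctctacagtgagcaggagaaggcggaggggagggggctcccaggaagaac
The motif stood 235 bases before the FOXA1 start and 138 bases before this GATA3 start, and was not in the SPDEF window. It was thus found at 2 of 10 starts, and not at the other GATA3 starts or at the GATA2 starts. It was added after the sequences were seen, and 3.23% of 35116 promoter windows of the same length held it on either strand. The other motifs searched on both strands were TGTTTAC (forkhead, 0 of 10 starts, 2.98% of all windows), AGAACA (a steroid receptor element core, 0 of 10, 12.4%), AGATAA (for factors of the GATA family, 0 of 10, 9.17%) and CCAATAAA (HOXB13, 0 of 10, 0.863%). GCGTG, the core of the site read by the aryl hydrocarbon receptor, stood before both GATA2 starts and 1 GATA3 start (32.2% of all windows), and AACAAT (SOX factors) before 1 GATA3 start (8.98%). A match is a run of letters and not evidence of binding. Its absence covers this window and the exact spellings searched only, and other forms of these motifs were not searched.

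All 6 factors had a signal in the control above the floor of 97.1, which is the median over every probe set and array. Signals are linear intensities, and the brightness of one probe set says nothing of the amount of another gene's RNA, so the factors were not ranked against each other. GATA3 and GATA2 had their brightest probe sets at 1651 and 1018 in the control, SOX9 and HOXB13 at 629.6 and 601, FOXA1 at 425 and SPDEF at 251. Of the 17 probe sets, 10 were above the floor on all 5 arrays, and the 7 others belonged to SPDEF, FOXA1 and GATA2.

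**Figure D1:**
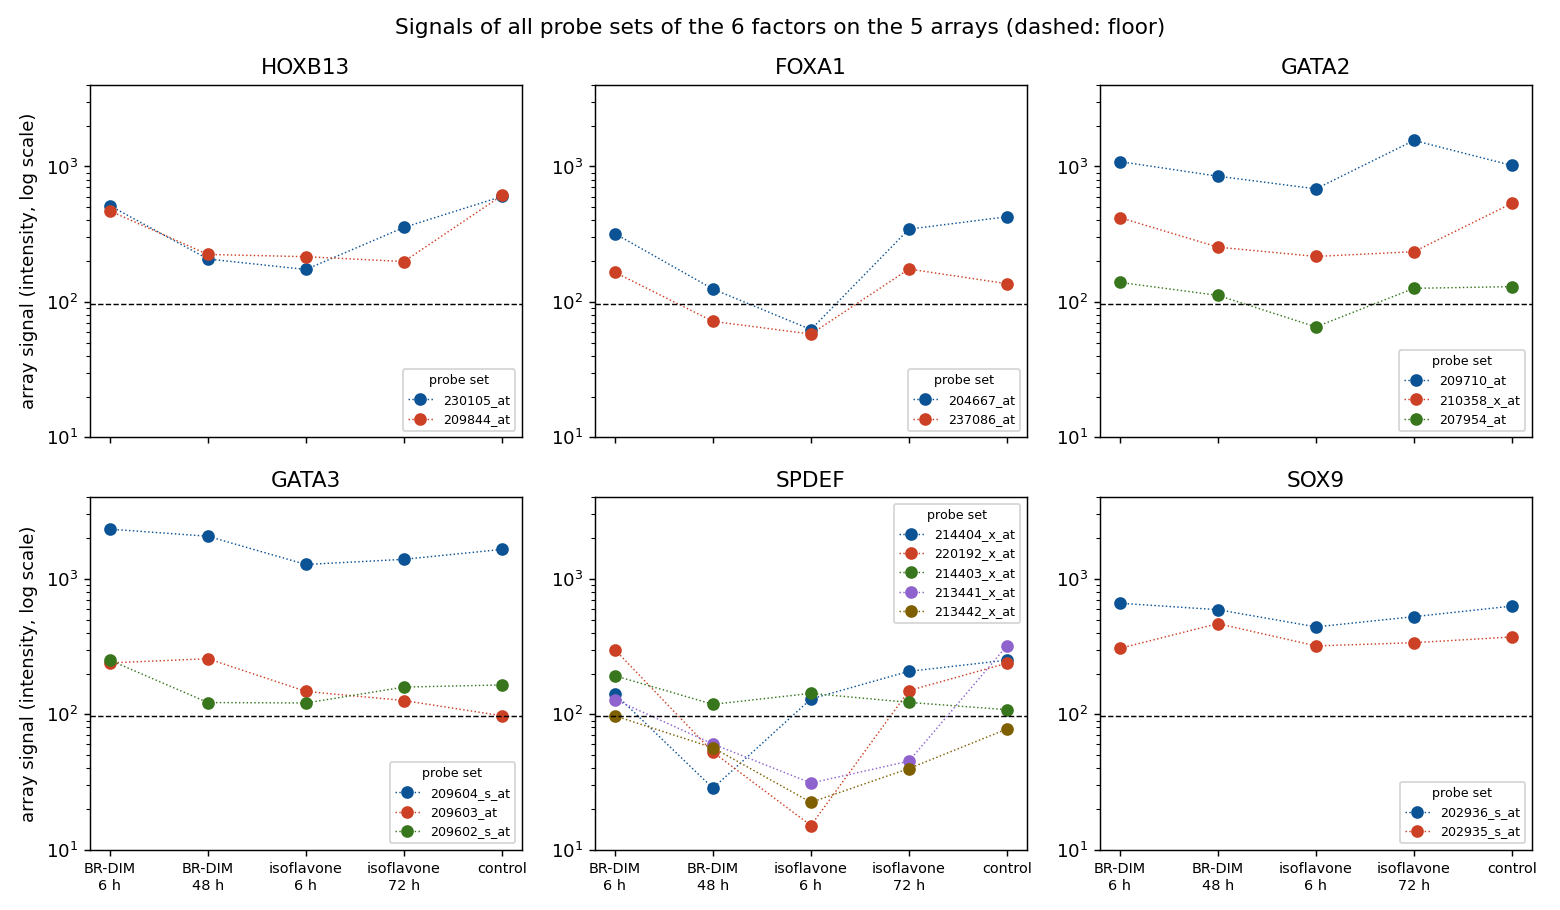
Array signal (vertical axis, intensity on a log scale) of every probe set of the 6 factors on the treated arrays and the control array (horizontal axis), with 1 array per condition. Each point is 1 probe set on 1 array, dotted lines only join points of the same probe set, and the dashed line is the floor of 97.1. HOXB13 and FOXA1 are low at 48 h of BR-DIM and 6 h of isoflavone, while both SOX9 probe sets stay within 1.5-fold of the control.

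HOXB13 and FOXA1 were low on the same pair of arrays. On BR-DIM 48 h, 3 of 6 factors (HOXB13, FOXA1 and SPDEF) passed 2-fold lower than the control and 0 higher, where 3.87% of 12921 measured genes were lower and 5.33% higher. On isoflavone 6 h, 2 of 6 (HOXB13 and FOXA1) were lower and 0 higher, against 3.82% and 1.18% of 12456 genes. At 6 h of BR-DIM and 72 h of isoflavone no factor passed 2-fold, where 0.806% (lower) and 2.86% (higher) of 13020 genes and 2.06% and 4.8% of 12604 genes did. The median log2 ratio of the 6 factors was -0.08 (6 h) and -0.82 (48 h) for BR-DIM and -0.76 (6 h) and -0.27 (72 h) for isoflavone, beside medians of 0.07, 0.06, 0.00 and 0.05 over all measured genes. These 4 comparisons share the 1 control array.

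**Figure D2:**
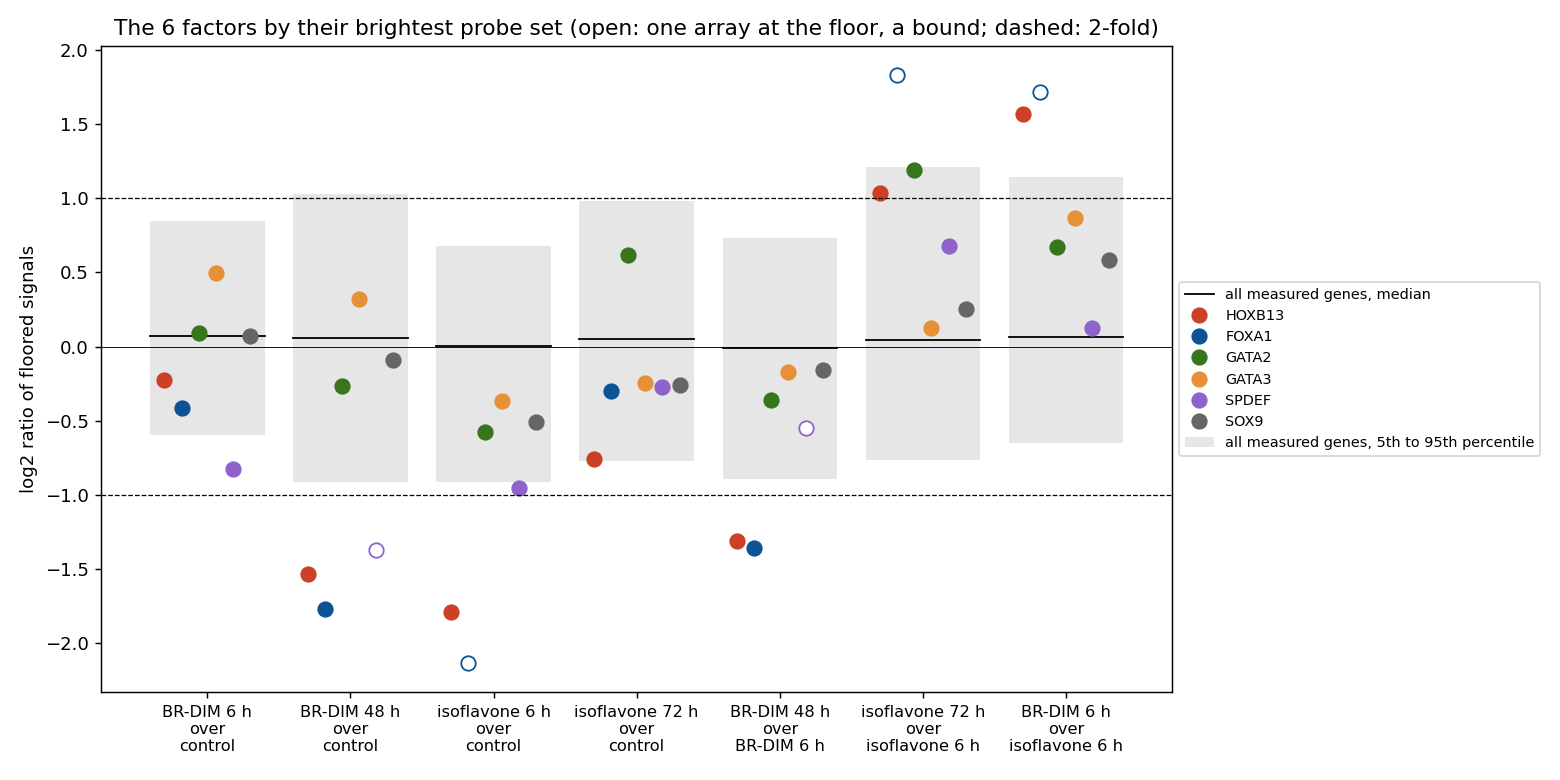
Log2 ratio of floored signals (vertical axis) of the 6 factors by their brightest probe set, for 7 pairs of single arrays (horizontal axis). Open points are bounds with 1 array at the floor, grey bars run between the 5th and 95th percentiles of all measured genes, black lines are their medians, and dashed lines mark 2-fold. Against control, HOXB13 and FOXA1 lie under the grey bars at 48 h of BR-DIM and 6 h of isoflavone. SPDEF lies under them on the same arrays and also at 6 h of BR-DIM.

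HOXB13 was lower than the control on every treated array by both of its probe sets. The brightest read 514 and 207 after 6 and 48 h of BR-DIM, and 174 and 355 after 6 and 72 h of isoflavone, against 601 in the control. That is 2.90-fold lower at 48 h of BR-DIM and 3.46-fold lower at 6 h of isoflavone (log2 ratios -1.53 and -1.79), with -0.23 and -0.76 at the other times of these compounds. The second probe set read 469.8, 224, 216 and 199 on the same treated arrays, against 611 in the control. It lay 1.30-fold and 2.72-fold lower at the 2 BR-DIM times and 2.83-fold lower on isoflavone 6 h, near the brightest, but was past 2-fold on isoflavone 72 h too (3.07-fold, -1.62). HOXB13 on isoflavone 72 h therefore lay at 1.69-fold or 3.07-fold lower depending on the probe set.

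FOXA1 was past 2-fold lower than the control at 48 h of BR-DIM and at 6 h of isoflavone. Its brightest probe set read 319 and 124.5 after 6 and 48 h of BR-DIM, and 62.5 and 345 after 6 and 72 h of isoflavone, against 425 in the control. The BR-DIM 48 h signal was 3.42-fold lower (log2 ratio -1.77), and that of isoflavone 6 h fell under the floor, which makes it at least 4.38-fold lower (-2.13). At 6 h of BR-DIM and 72 h of isoflavone the ratios were -0.41 and -0.30. The second FOXA1 probe set was dimmer, at 165, 71.9, 57.9 and 175 on the treated arrays against 136 in the control. It was under the floor on the same 2 arrays where the brightest was lowest, so it bounds the difference there at only 1.40-fold or more (-0.49 on each). By this probe set FOXA1 exceeded the control at 6 h of BR-DIM and 72 h of isoflavone (0.28 and 0.36), the opposite sign of the brightest. The lower FOXA1 calls thus rest on 1 probe set.

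SPDEF was dim and its probe sets disagreed. All 5 of them carry the suffix _x_at, which marks probes that also match other sequences. The brightest read 142 and 28.5 after 6 and 48 h of BR-DIM, and 129.9 and 208 after 6 and 72 h of isoflavone, against 251 in the control. At 48 h of BR-DIM it was lower by 2.59-fold or more (log2 ratio -1.37, at the floor), with -0.82 at the earlier BR-DIM time and -0.95 and -0.27 at 6 h and 72 h of isoflavone. The next one read 300.1, 52.6, 15.1 and 149.6, against 238 in the control, and was under the floor at 48 h of BR-DIM and at 6 h of isoflavone (-1.30 on each, bounds). Another, at 321 in the control, was at least 2-fold lower on all 4 treated arrays (-1.32 on BR-DIM 6 h and -1.72, a bound, on the others). Against these, the probe set that stayed above the floor on all 5 arrays varied least, with 193 on BR-DIM 6 h as its highest signal and 108 in the control as its lowest (0.83). The remaining one passed the floor on BR-DIM 6 h alone, at 97.4. SPDEF thus passed 2-fold lower by 3 of 5 probe sets at 48 h of BR-DIM, and by 2 of 5 at 6 h of isoflavone.

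GATA2 gave no 2-fold difference from the control by its brightest probe set, and its probe sets parted on isoflavone 72 h. The brightest read 1086 and 847 after 6 and 48 h of BR-DIM, and 684 and 1557 after 6 and 72 h of isoflavone, against 1018 in the control. Its log2 ratios were 0.09, -0.26, -0.57 and 0.61. The second, an _x_at probe set, read 419, 254, 217 and 235 against 535 in the control, with -0.35, -1.07, -1.30 and -1.19, so it was at least 2-fold lower on all but BR-DIM 6 h. The third, close to the floor, lay between 65.4 on isoflavone 6 h and 139 on BR-DIM 6 h, with 129.7 in the control. On isoflavone 72 h the 2 brightest differed by 1.80 in log2 ratio, where the 2 brightest probe sets of 5576 genes differed by a median of 0.39 and by 1.22 at the 95th percentile. Isoflavone 6 h was the lowest array for all 3 GATA2 probe sets.

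GATA3 was the one factor above the control on both BR-DIM arrays by its brightest probe set, at less than 2-fold. That probe set read 2329 and 2064 after 6 and 48 h of BR-DIM, and 1277 and 1395 after 6 and 72 h of isoflavone, against 1651 in the control. The log2 ratios were 0.50 and 0.32 for BR-DIM, and for isoflavone -0.37 and -0.24. The second probe set read 239.7, 257, 148 and 126 against 97.6 in the control, just over the floor, and passed 2-fold higher under BR-DIM at both times (1.30 and 1.40, with 0.60 and 0.37 for isoflavone). The third read 251, 122, 121 and 159 against 165, with 0.61, -0.43, -0.44 and -0.05. All 3 exceeded the control at 6 h of BR-DIM, and the 2 brightest did at 48 h.

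SOX9 varied least over the 5 arrays (SD of log2 signal 0.21) by its brightest probe set. That probe set read 661 and 592 after 6 and 48 h of BR-DIM, and 442 and 526 after 6 and 72 h of isoflavone, against 629.6 in the control (log2 ratios 0.07, -0.09, -0.51 and -0.26). The other read 307, 468, 320.0 and 338 against 373 (-0.28, 0.33, -0.22 and -0.14). Both put the isoflavone arrays under the control, by less than 1.5-fold, and they differed in sign on both BR-DIM arrays.

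**Figure D3:**
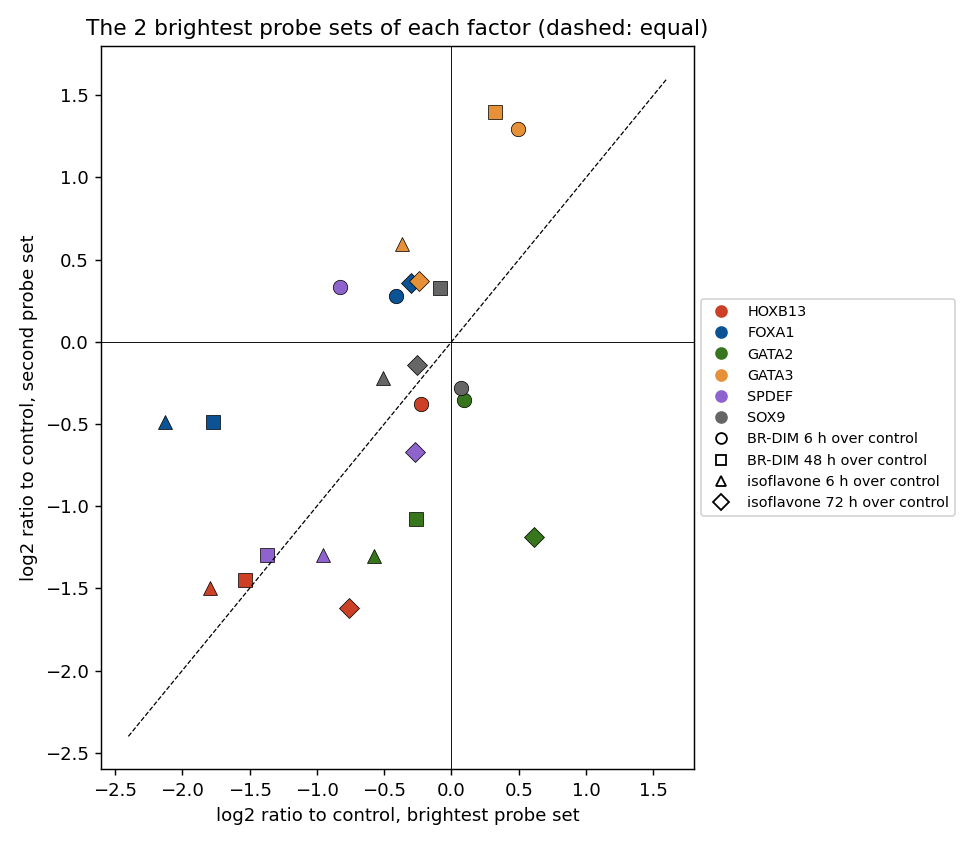
Log2 ratio to control by the brightest (horizontal axis) and second brightest (vertical axis) probe set of each of the 6 factors on the 4 treated arrays. Each point is 1 factor on 1 array, colours are factors, shapes are arrays, ratios use floored signals, and the dashed line marks equal values. HOXB13 lies close to the line except on isoflavone 72 h (-0.76 and -1.62), and GATA2 on isoflavone 72 h lies farthest from it (0.61 and -1.19).

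The BR-DIM 48 h and isoflavone 6 h arrays stand apart from the others in luminal and epithelial genes. By their brightest probe sets HOXB13, FOXA1 and SPDEF were below the control on all 4 treated arrays, farthest on this pair. On BR-DIM 48 h, GATA2, GATA3 and SOX9 lay within 2-fold of the control, with log2 ratios of -0.26, 0.32 and -0.09. On isoflavone 6 h they were all below it, also within 2-fold (-0.57, -0.37 and -0.51). Of 14 listed genes of luminal secretory cells, 7 passed 2-fold lower at 48 h of BR-DIM, as did 7 of 13 measured at 6 h of isoflavone, with 0 lower at 6 h of BR-DIM and 4 at 72 h of isoflavone. KLK3 read 3424 and 14.6 after 6 and 48 h of BR-DIM, and 269.5 and 1545 after 6 and 72 h of isoflavone, against 5096 in the control. Its second probe set had the same order of signals (3560, 11.8, 134 and 1388.5 against 4219). The third KLK3 probe set stayed within 2-fold of the control on all 4 treated arrays (302.3, 239.6, 194.1 and 233.2 against 266.7). KLK2, its neighbour and fellow kallikrein, read 525, 7.2, 11.4 and 124 against 707, and so was low on isoflavone 72 h too. The prostate membrane antigen gene FOLH1 (591, 19.6, 17.2 and 617 against 373) and the cold channel gene TRPM8 (248, 22.1, 68.9 and 127 against 369.9) had their lowest signals on the same 2 arrays as FOXA1. On isoflavone 72 h, FOXA1 and FOLH1 were near or above the control while KLK3, KLK2 and TRPM8 were at least 2-fold lower.

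Of the luminal keratins and epithelial genes, 8 of 9 had a probe set. Of 6 measured on each array, 4 passed 2-fold lower at 48 h of BR-DIM and 5 at 6 h of isoflavone, and 0 of 7 were lower at 6 h of BR-DIM or 72 h of isoflavone. CDH1, the E-cadherin gene, read 2114, 99.5, 85.9 and 3736 on the treated arrays against 2195 in the control, and KRT18, a luminal keratin, 2940, 1033, 461 and 2680 against 2739. EPCAM, an epithelial adhesion molecule, read 565.5, 294, 138 and 1097 against 614.5, while CD24, a surface glycoprotein, was high on BR-DIM 48 h (6640 against 1142) and low on isoflavone 6 h (439.9). The summed signal of the 8 genes was 9001, 8347, 1447 and 13761 against 7324, where CD24 alone gave 6640 on BR-DIM 48 h. The part of this shared epithelial pattern in the HOXB13 and FOXA1 values was not tested, and since each condition is 1 array, leaving out either array removes its comparison.

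**Figure D4:**
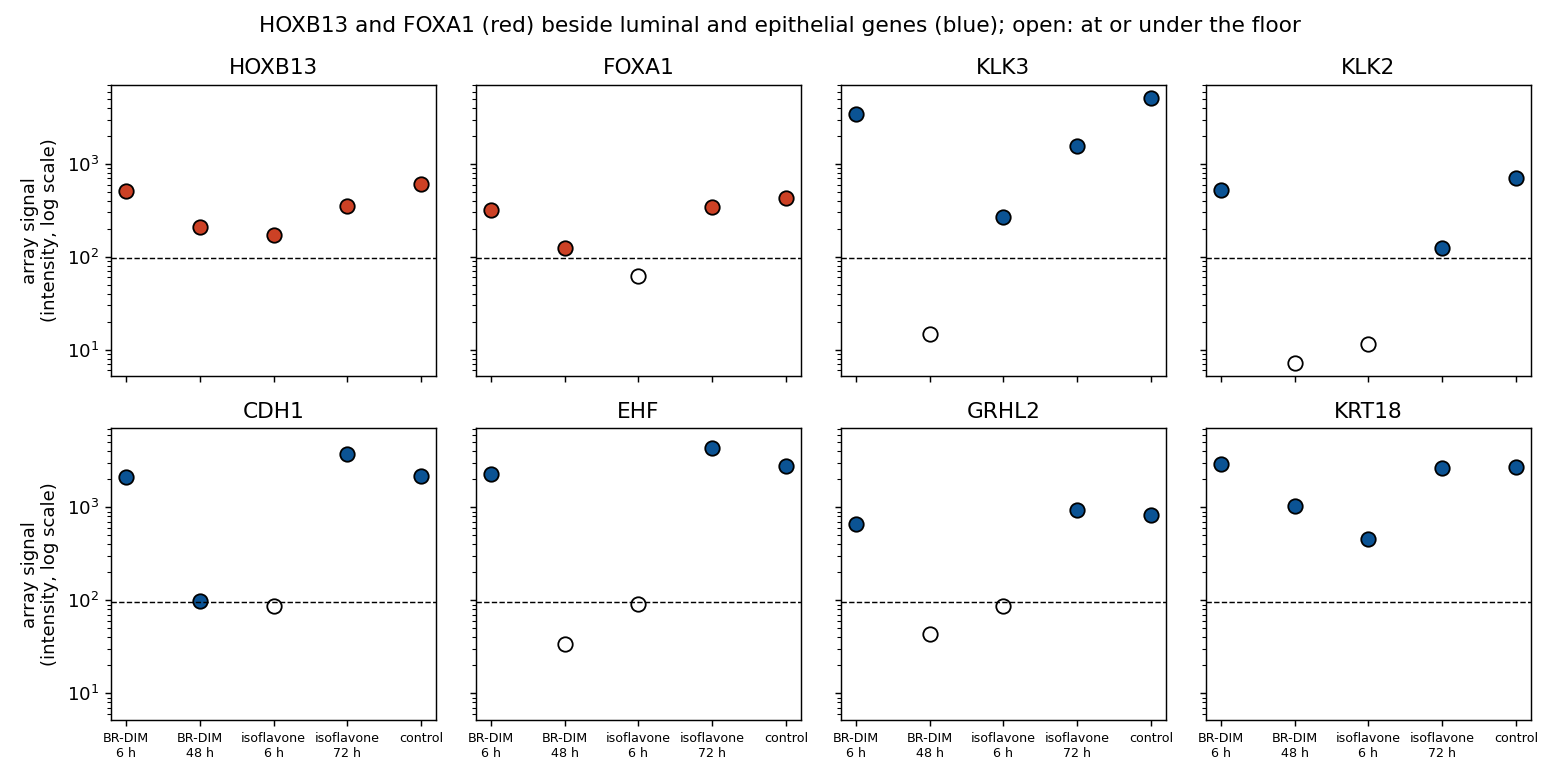
Array signal (vertical axis, intensity on a log scale) of HOXB13 and FOXA1 (red) and 6 luminal and epithelial genes (blue) on the 4 treated arrays and the control (horizontal axis), 1 point per array. Open points lie at or under the floor of 97.1 (dashed). All 8 genes have their 2 lowest signals at 48 h of BR-DIM and 6 h of isoflavone, and KLK2 and KLK3 are also under the control on isoflavone 72 h.

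Among other transcription factors of luminal epithelium, 2 were low on the same pair of arrays as FOXA1. Of 11 listed, 8 could be measured, and EHF and GRHL2 were the 2 that passed 2-fold lower on both of these arrays. EHF, an ETS factor like SPDEF, read 2296 and 33.5 after 6 and 48 h of BR-DIM, and 91.8 and 4347 after 6 and 72 h of isoflavone, against 2775 in the control. GRHL2, a grainyhead factor of epithelial junctions, read 669.8, 43.5, 85.9 and 936 against 831. ELF3, another epithelial ETS factor, passed 2-fold higher on isoflavone 72 h alone (301 against 115, log2 ratio 1.39). FOXP1, a forkhead factor, read 2393, 2303, 1402 and 3487 against 1864, its lowest signal on isoflavone 6 h without a 2-fold difference. KLF5, TRPS1, CREB3L4 and TFAP2A stayed within 2-fold on all 4 arrays.

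The relatives of the 6 factors gave few 2-fold differences. Of 19 paralogues (EHF and ELF3 again among them), 18 were on the arrays with a usable probe set and between 12 and 15 were measured against the control. HOXB9, a homeobox gene of the same cluster as HOXB13, went the other way with BR-DIM: it read 1089 and 1508 after 6 and 48 h of BR-DIM, and 322 and 827 after 6 and 72 h of isoflavone, against 516 in the control (1.08, 1.55, -0.68 and 0.68). SOX8, a close relative of SOX9, was at least 2-fold lower on isoflavone 6 h alone (110.0 against 488, -2.15). Besides EHF, HOXC13 was the one further lower paralogue, at 48 h of BR-DIM (-1.03). FOXA2 and FOXA3 were under the floor in the control, at 10.5 and 75.9. Of 17 coregulators, 13 had a probe set, and GRHL2 was the only one past 2-fold against the control. ZFPM2, a GATA partner of the FOG family, lay at 0.55, 0.83, -0.94 and -0.01, its relative ZFPM1 at 0.10, -0.94, 0.43 and -0.01, and the homeobox partner MEIS2 at 0.02, 0.04, -0.87 and -0.36.

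The label of a luminal prostate line was set against markers, which bore it out only in part. In the control, KRT8 (429) and KRT18 were above the floor and KRT19 (4.2) was not. The basal keratins KRT5, KRT14 and KRT15 were under the floor on all 5 arrays, and the adhesion genes ITGA6 (384) and DST (1622) were the 2 of 6 basal markers above it in the control, with summed basal signals between 1748 (isoflavone 6 h) and 2829 (isoflavone 72 h) on treated arrays and 2132 in the control. Of 9 neuroendocrine markers, 5 were above the floor in the control, among them ENO2, NCAM1, INSM1 and POU3F2 (818), while the granins CHGA and CHGB and the vesicle gene SYP were under it on all arrays. INSM1 passed 2-fold higher at the late time of each compound (1.92 for BR-DIM and 1.43 for isoflavone) and lower at 6 h of isoflavone (-1.17, a bound), and NCAM1 passed it at 72 h of isoflavone (1.03). Mesenchymal genes were present throughout: 8 of 9 were above the floor in the control, with SNAI2 at 3762, ZEB1 at 2305 and CDH2, the N-cadherin gene, at 2098 there, and VIM, the vimentin gene, at 30013, 50009, 33275 and 40167 on the treated arrays against 22024. ZEB2, a repressor of E-cadherin, was past 2-fold higher with VIM on BR-DIM 48 h (1.19 and 1.18), FN1, the fibronectin gene, was past 2-fold lower on isoflavone 6 h (-1.38), and TWIST1 stayed within 2-fold. Their summed signals were 53249.9, 72275, 47457 and 64302 against 40842. Of 5 blood and endothelial markers 0 were above the floor in the control and at most 2 on a treated array (BR-DIM 6 h). The part of these other markers in the values of the factors was not tested. Of 9 housekeeping genes, only TFRC, the transferrin receptor gene, passed 2-fold (lower on BR-DIM 48 h, -2.04), and their median log2 ratios lay between 0.07 and 0.26 on the 4 treated arrays.

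Over the time of treatment, HOXB13 and FOXA1 were lower at the later BR-DIM time and higher at the later isoflavone time by their brightest probe sets. BR-DIM 48 h against BR-DIM 6 h had 2 of 6 factors at least 2-fold lower and 0 higher, where 3.74% of 13383 genes were lower and 1.83% higher. HOXB13 read 207 at 48 h and 514 at 6 h (log2 ratio -1.31), and FOXA1 124.5 and 319 (-1.36). SPDEF was under the floor at 48 h (log2 ratio -0.55 as a bound, and -2.31 with no floor, past 2-fold), and GATA2, GATA3 and SOX9 lay at -0.36, -0.17 and -0.16. By their second probe sets, GATA3 and SOX9 had the opposite sign (0.10 and 0.61). The third GATA3 probe set was past 2-fold lower (122 at 48 h and 251 at 6 h, -1.04). The second of SPDEF was at least 3.09-fold lower (52.6 and 300.1, -1.63). Of all 17 probe sets, 5 were at least 2-fold lower and 0 higher. Isoflavone 72 h against isoflavone 6 h had 3 of 6 factors at least 2-fold higher and 0 lower, where 7.77% of 12658 genes were higher and 1.89% lower. FOXA1 read 345 at 72 h and 62.5 at 6 h (at least 3.55-fold higher, 1.83), GATA2 1557 and 684 (1.19), and HOXB13 355 and 174 (1.03). The second HOXB13 probe set did not share that difference (199 at 72 h and 216 at 6 h, -0.12), nor did the second of GATA2 (235 and 217, 0.12). GATA3 lay at 0.13 by its brightest and -0.22 by its second probe set. The late times of the compounds differ, 48 h and 72 h, so these changes with time were not set against each other.

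The compounds shared 1 dose and 1 time, 25 µM for 6 h, where BR-DIM was above isoflavone for all 6 factors by their brightest probe sets, except that SPDEF turned to -0.13 with quantile normalization. HOXB13 read 514 with BR-DIM and 174 with isoflavone (log2 ratio 1.57), and FOXA1 319 and 62.5 (at least 3.29-fold higher, 1.72). These were the 2 of 6 at least 2-fold higher, with 0 lower, where 7.01% of 13075 genes were higher and 1.12% lower. GATA3 followed at 2329 and 1277 (0.87), GATA2 at 1086 and 684 (0.67), SOX9 at 661 and 442 (0.58) and SPDEF at 142 and 129.9 (0.13). The second SPDEF probe set read 300.1 with BR-DIM and 15.1 with isoflavone, at least 3.09-fold higher (1.63). Of all 17 probe sets, 16 were above 0 in this comparison and 5 at least 2-fold higher, among them both of HOXB13. The 1 below 0 was the second of SOX9 (-0.06). Probe sets of the same gene are not separate observations. Over all measured genes, by brightest probe set, the median log2 ratio was 0.06 and 43.9% lay below 0. With 1 array per compound the interval of each difference cannot be given.

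Genes with the pattern most like each factor were searched among genes with a mean signal of at least 4 times the floor, by the root mean square difference of log2 signals over the 5 arrays after each gene was centred on its own mean. HOXB13 and FOXA1 shared NHSL3 and the tetraspanin gene CD9 among their 3 nearest (0.17 and 0.22 for HOXB13, 0.20 and 0.19 for FOXA1). CD9 read 4693 and 2328 after 6 and 48 h of BR-DIM, and 1398 and 4353 after 6 and 72 h of isoflavone, against 5733 in the control. The third of HOXB13 was TTC39C (0.24), and the nearest to FOXA1 was ARHGEF26 (0.18). HOXB13 and FOXA1 differed from each other by 0.28, and among the 15 pairs of factors only GATA3 and SOX9 were closer (0.19). GATA2 lay nearest to LRBA (0.02), a gene of vesicle traffic, to URB1-AS1 (0.06) and to CDKN1A, the p21 gene (0.08). GATA3 lay nearest to DHRS13 (0.06), TGFBR3 (0.07) and MEX3A (0.07), SPDEF to MLF2 (0.11), SHROOM3 (0.13) and CISD3 (0.14), and SOX9 to FBN2 (0.04), CDC73 (0.05) and HPCAL1 (0.06). GATA2, GATA3 and SOX9, with the smallest differences from their nearest genes, also varied least (SD of log2 signal 0.40, 0.33 and 0.21). The SD was 0.70 for HOXB13, 0.86 for FOXA1 and 0.49 for SPDEF. Each pattern is that of the brightest probe set only. For GATA2 the 2 brightest differed by 1.80 in log2 ratio to control on isoflavone 72 h.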

How the data were processed

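C4-2B RNA was hybridised to 5 Affymetrix Human Genome U133 Plus 2.0 arrays, 1 per condition, and groups were taken from the labels. The authors made the intensity values with Microarray Suite (MAS5), MicroDB and Data Mining Tool software and deposited 1 linear, scaled signal per probe set; version, scaling target and detection calls are not given in the sources used here. Trimmed means of the arrays (2% off each end) lay between 498.1 and 498.4, medians between 89.3 and 109, and 48.4% to 52.6% of 54613 probe sets lay above the floor. The number of arrays limits the precision.

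Of the probe sets, 41091 carry 1 gene symbol, and 1801 with several and 11721 not in the gene table were left out. Symbols were updated through RefSeq gene identifiers. For each gene the probe set with the highest mean over the arrays stood for it. Signals under 97.1, the median of all signals, were raised to that floor, and a gene counted as measured when either array of a comparison exceeded it. Ratios that involve the floor are bounds. The threshold was 2-fold, with no test. Listed genes without a probe set used here were not analysed here.

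Members and lists were chosen with earlier results of these data known. The rule for named genes took all members with every probe set, from each list the 4 genes with the log2 ratio to control farthest from 0, KLK3, and the 3 genes most like each member. FOXA2, FOXA3, HOXC13, KLF5, TRPS1, CREB3L4, TFAP2A, KRT5, KRT8, KRT14, KRT15, KRT19, CHGA, CHGB, SYP, SNAI2, ZEB1, CDH2, GATA2-AS1 and GATA3-AS1 were named after their values were seen. In all, 7 comparisons were made. The alternatives were quantile normalization, median ratio scaling, no floor, a higher floor (471.7, the 75th percentile), a lower floor (84.4, from the 90th percentile over olfactory receptor genes), a pseudocount of 97.1 in its place, the mean of all probe sets, omission of _s_at and _x_at probe sets, and thresholds of 1.5-fold and 3-fold. The procedure was tested on simulated data, with changes planted only in genes whose control signal was above 4 times the floor. The noise was set and not taken from these arrays. Dimmer genes such as SPDEF were therefore not covered. Python 3.11.15, numpy 2.4.6 and pandas 2.3.3 were used.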

Additional observations from a re-analysis of the deposited data

Results flagged for a closer look

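Values of 3 factors went opposite ways against the control in 2 treated groups, by their brightest probe sets and with 1 array each, and none of these differences was tested. At 6 h, BR-DIM and isoflavone gave log2 ratios of 0.09 and -0.57 for GATA2 (difference 0.67), 0.50 and -0.37 for GATA3 (0.87) and 0.07 and -0.51 for SOX9 (0.58). Between the times of BR-DIM, 48 h and 6 h gave -0.26 and 0.09 for GATA2 (difference -0.36) and -0.09 and 0.07 for SOX9 (-0.16). Between the times of isoflavone, 72 h and 6 h gave 0.61 and -0.57 for GATA2 (1.19), the one of these differences past 2-fold, while the second GATA2 probe set had -1.19 and -1.30. By the second probe sets the signs at 6 h of BR-DIM and isoflavone were the same for GATA2 (-0.35 and -1.30), GATA3 (1.30 and 0.60) and SOX9 (-0.28 and -0.22). Between 48 h and 6 h of BR-DIM, the second GATA2 probe set kept its sign (-1.07 and -0.35). That of SOX9 changed sign in the other direction (0.33 and -0.28). All ratios share the control array.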

How the results depend on the processing

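Of 140 counts of factors under the alternatives, 122 stayed within 1.5 times their value, but most of these were counts of 0; of the 50 that belong to a count above 0, 38 did and 12 did not. No log2 ratio past 2-fold changed sign, and 9 smaller ones did, of SPDEF (BR-DIM 6 h against isoflavone 6 h, -0.13 with quantile normalization), of GATA2 and SOX9 with all probe sets averaged, and of GATA3 where its _s_at probe sets were omitted. With a floor at the 75th percentile, 3 or 4 factors were measured; the lower counts were then 0 on BR-DIM 48 h against control, isoflavone 6 h against control and BR-DIM 48 h against BR-DIM 6 h, and the higher counts 1 (GATA2) on isoflavone 72 h against isoflavone 6 h and 0 on BR-DIM 6 h against isoflavone 6 h. FOXA1 and SPDEF lay under that floor on all 5 arrays, so they were not measured and could not be counted. HOXB13 lay under it where it was lowest, so its ratios there are bounds. On isoflavone 72 h against isoflavone 6 h HOXB13 was not measured either. Of all genes measured at that floor, 2.15%, 0.831% and 1.14% were lower in the comparisons named, and 3.43% and 2.11% higher, in the same order. With the floor as a pseudocount, 1 factor (HOXB13) stayed lower on BR-DIM 48 h against BR-DIM 6 h, where 2.82% of all measured genes were. With all probe sets averaged, 1 factor (HOXB13) was lower on isoflavone 72 h against control, and 1 (FOXA1) higher on isoflavone 72 h against isoflavone 6 h. The shares of all measured genes were 1.49% and 5.76%. Without _s_at and _x_at probe sets, which leaves 4 factors and takes away SPDEF and SOX9, 1 factor (GATA3) was higher on BR-DIM 6 h and on BR-DIM 48 h against control. Of all measured genes, 2.93% and 5.53% were higher there.

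With a 1.5-fold rule, 1 factor (SPDEF) was lower on BR-DIM 6 h against control, where 5.15% of all measured genes were. On isoflavone 72 h against control 1 was higher (GATA2) and 1 lower (HOXB13), beside 14.99% and 9.73% of genes. On BR-DIM 6 h against isoflavone 6 h 4 were higher, beside 17.5% of genes. With a 3-fold rule, 1 (FOXA1) stayed lower on BR-DIM 48 h against control and 0 on BR-DIM 48 h against BR-DIM 6 h, beside 0.813% and 0.785% of genes. On isoflavone 72 h and on BR-DIM 6 h, each against isoflavone 6 h, 1 (FOXA1) was higher, beside 2.33% and 1.87% of genes. HOXB13 on isoflavone 72 h against isoflavone 6 h was under 2-fold with quantile normalization (0.86), and SPDEF on BR-DIM 48 h against BR-DIM 6 h was past it with no floor (-2.31). Over all genes, quantile normalization moved the split of higher and lower calls to 688 and 248 on BR-DIM 6 h against isoflavone 6 h (916 and 146 as deposited) and to 334 and 413 on BR-DIM 48 h against BR-DIM 6 h (245 and 501). No paired analysis was possible because each condition has 1 array, and no array could be left out.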

Other observations

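GATA2-AS1, the noncoding gene that runs opposite to GATA2, had 1 probe set, which read 245 and 242 after 6 and 48 h of BR-DIM, and 235 and 259.6 after 6 and 72 h of isoflavone, against 276 in the control. Its log2 ratios lay between -0.23 and -0.09, a narrower range than that of any GATA2 probe set. The probe sets of GATA3-AS1 were under the floor on all 5 arrays.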
